A study of Drosophila melanogaster with 6 samples.

Results

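The genes described here are 10 regulators and effectors of the Drosophila heart and of the cardiac mesoderm it forms from, namely tin, pnr, Hand, Doc1, Doc2, Doc3, mid, H15, svp and Ork1. A probe set was taken as a member where the platform annotation pairs it with exactly 1 of these genes. This gave 11 of the 18769 fly probe sets tested, for 9 of the 10 genes. svp had 3 probe sets and each other measured gene had 1. tin is not analysed here: the annotation used pairs none of the probe sets with that gene, alone or together with other genes. RNA came from whole embryos of stages 11 to 16, collected and aged at 25 C and sorted by a COPAS instrument, and was measured on 6 Affymetrix arrays. The 3 reference arrays hold wild type Oregon R embryos. The other 3 hold embryos of the same genetic background that carry a UAS-Sage transgene and the tub-Gal4 driver, which is active in most cells, so that the salivary gland bHLH factor Sage is made throughout the embryo. The labels list no embryos with the driver or the transgene alone. Whether the replicates were separate collections is not stated, so the p-values reflect the spread between these 6 samples, which may be technical.

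The fly heart is a contractile tube that forms in the embryo from the dorsal edge of the mesoderm. There, Dpp (BMP) and Wingless signals meet the homeodomain factor Tinman, and the GATA factor Pannier and the T-box factors of the Dorsocross group join it to specify cardiac cells. Hand, the Tbx20 relatives Midline and H15, and the nuclear receptor Seven-up then act in the contractile cardioblasts, the inflow cells and the pericardial cells around them. Several of these genes also act outside the heart: pnr and the Doc genes in dorsal ectoderm and amnioserosa, mid and H15 in ectoderm and nervous system, svp in neuroblasts and fat body. In RNA from whole embryos, fewer cells of a type and less RNA per cell cannot be told apart.

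Sage RNA rose 23.1-fold in the Sage embryos (limma adjusted p 7.5e-05), a value to which both the transgene and the endogenous gene may contribute. Array medians lay between 5.44 and 5.52 on the log2 scale of RMA, the scale of every level below. Group means of the 70 control probe sets assumed to lack a fly target ran from 3.23 to 5.35, called the control range here. Bacterial polyA spike-ins added before labelling were lower on the Sage arrays for 24 of 24 probe sets (median log2 difference -1.65). The fly control probe sets at 5′ ends were lower too (6 of 6, median -1.29), and those at 3′ ends less so (6 of 6, median -0.37). Where the probe sets below lie along their transcripts was not used, and the part of labelling or RNA quality in their differences was not tested. The measured markers of nervous system (6 genes), epidermis (3), midgut (1), trachea (1) and salivary gland (3) lay above the control range. Of the 7 blood and fat body markers lz, Fbp1, Hml and He lay within it.

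Heart genes were lower or not distinguishable in the Sage embryos, and none was higher. Ork1, a leak potassium channel gene known for its control of heart rate, and pnr, which encodes the GATA factor of the cardiac mesoderm, fell. Hand was 1.58-fold higher in wild type and Doc1 1.39-fold, and neither passed the threshold of an adjusted p under 0.05. The other 5 genes had overlapping groups. In counts, 2 of the 11 probe sets were lower and 0 higher, against 2.88% of all 18769 probe sets lower and 3.24% higher (limma, adjusted over all of them). The count was 3 without wild type array 3, and 1 when any other array was left out. At an unadjusted p under 0.05 there were 4, all lower, against 10.8% of all probe sets lower at that p. In the same 4 every wild type array lay above every Sage array, a pattern seen in 13.6% of all probe sets. For the brightest probe set of each of the 9 genes the log2 difference was negative in 9 (49.9% among all probe sets), with a median of -0.33, beside a median of -0.01 over 11983 genes. The differences of H15 and svp were small and turned to 0.03 each without wild type array 1.

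**Figure D1:**
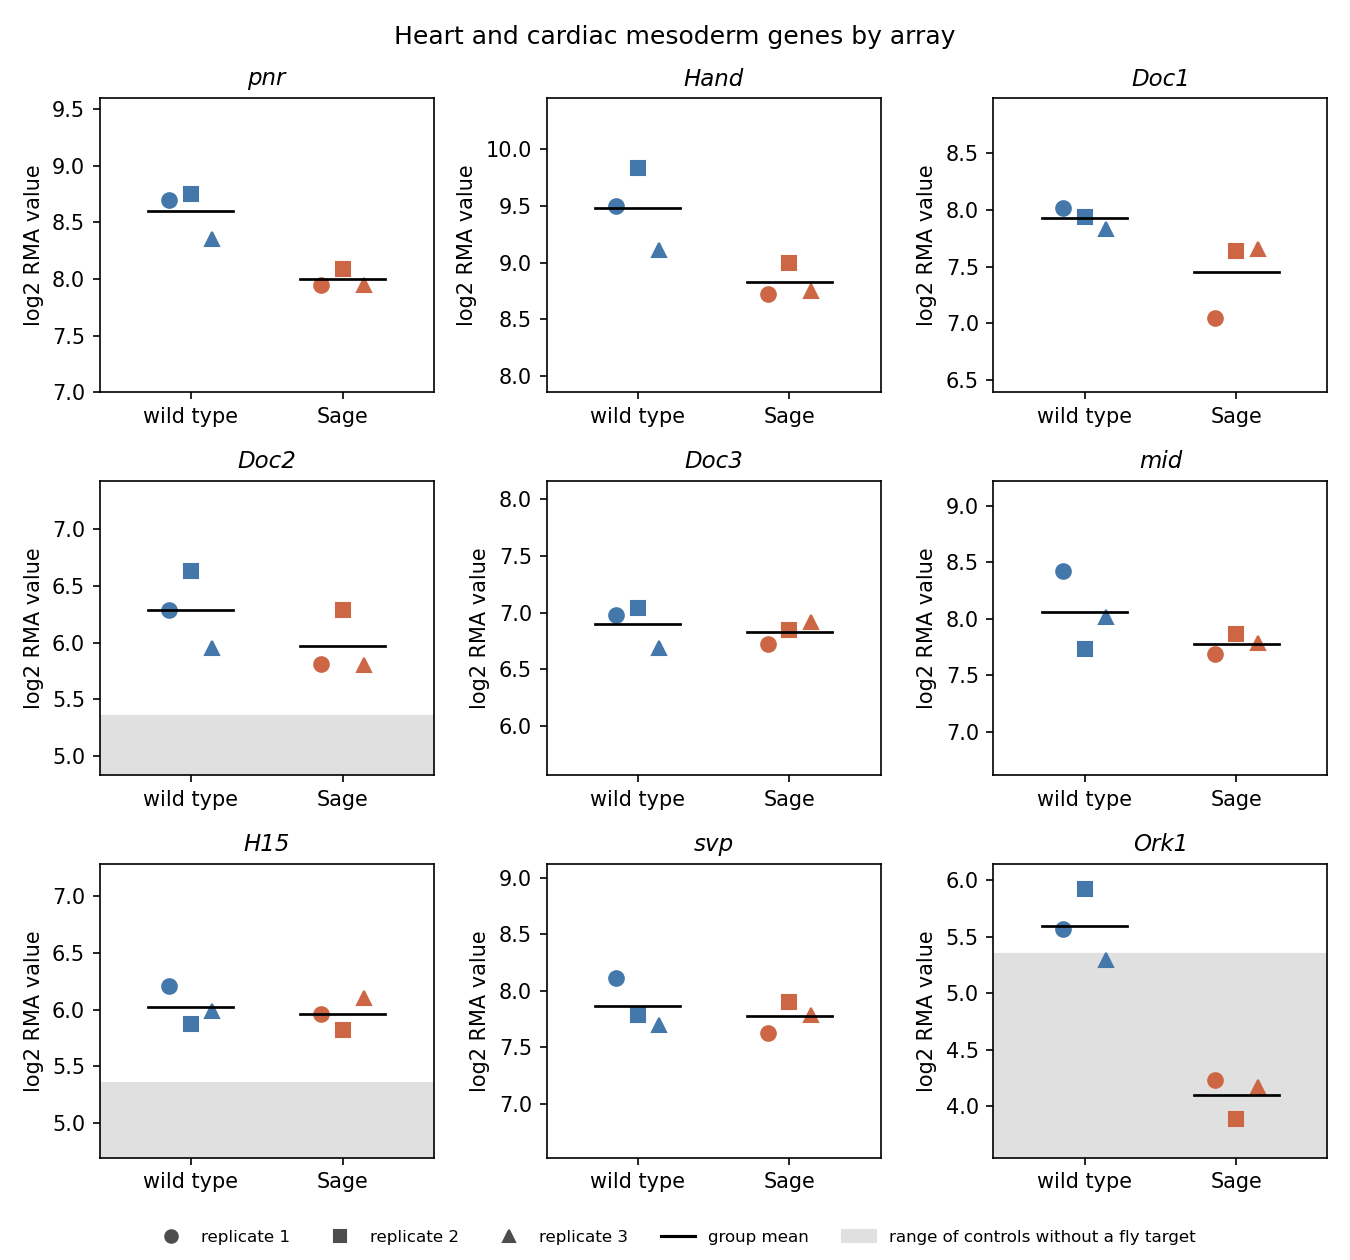
Log2 RMA value of each heart gene (brightest probe set) on each array, with wild type in blue, Sage overexpression in orange, the replicate number as the symbol and the group mean as a line. Each panel spans the same height on the log2 scale, and grey marks values up to 5.35, the top of the control range; the groups are apart for pnr, Hand, Doc1 and Ork1 and overlap for the other 5.

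pnr read 8.70, 8.75 and 8.35 on wild type arrays 1, 2 and 3 and 7.95, 8.09 and 7.95 on Sage arrays 1, 2 and 3. All Sage arrays lay below all wild type arrays, and the group means were 8.60 ± 0.22 (SD, n = 3) and 8.0 ± 0.08. pnr fell by 0.60 on the log2 scale (SE 0.13, 95% interval -0.91 to -0.30, limma adjusted p 0.046), and was thus 1.52-fold higher in wild type. This call lay close to the threshold. It was kept without wild type array 3 (adjusted p 0.022) and lost without wild type array 1 (0.12), wild type array 2 (0.052), Sage array 1 (0.16), Sage array 2 (0.12) or Sage array 3 (0.19).

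Hand encodes a bHLH factor of cardioblasts, pericardial cells and the lymph gland, and is a known target of Tinman and Pannier. It read 9.50, 9.84 and 9.11 in wild type and 8.72, 9.0 and 8.75 in Sage overexpression. The groups did not overlap, but the lowest wild type array and the highest Sage array were close. The log2 difference of -0.66 (SE 0.19, 95% interval -1.12 to -0.19) was similar in size to that of pnr, with a wider spread in wild type (SD 0.37) and an adjusted p of 0.11. With the replicate number as a block Hand passed (limma adjusted p 0.031), and the number of lowered heart genes was then 3. Without wild type array 3 it also passed, with a log2 difference of -0.84 (adjusted p 0.045).

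The 3 Dorsocross genes encode T-box factors that act together in cardiac mesoderm and amnioserosa. Doc1 read 8.02, 7.94 and 7.83 in wild type and 7.05, 7.64 and 7.66 in Sage overexpression. Its groups did not overlap, and Sage array 1 was far lower than the other two. The log2 difference was -0.48 (SE 0.18, 95% interval -0.91 to -0.05, adjusted p 0.19), and -0.28 without Sage array 1. Doc2 read 6.29, 6.63 and 5.95 in wild type and 5.81, 6.29 and 5.80 in Sage overexpression, with overlapping groups and a log2 difference of -0.33 (95% interval -0.84 to 0.18, adjusted p 0.47). Without wild type array 2 it was -0.15. Doc3 read 6.98, 7.04 and 6.69 against 6.72, 6.85 and 6.92, a log2 difference of -0.07 (95% interval -0.36 to 0.22, adjusted p 0.81). So Doc1 and Doc2 leave room for a fall, whereas the interval of Doc3 holds no fall beyond 0.36 on the log2 scale.

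Doc3, Doc2 and Doc1 follow each other along chromosome arm 3L in the Release 6 gene table, with the protein-coding gene CG5194 between Doc3 and Doc2. CG5194 read 4.84 in both groups, within the control range. The change of Doc1 exceeded that of Doc3 by -0.40 on the log2 scale, with every wild type array above every Sage array in that ratio. The change of Doc1 differed from that of Doc2 by -0.15, and that of Doc2 from that of Doc3 by -0.25. In an exact two-sided permutation test over arrays these gave p of 0.1, 0.7 and 0.3. The smallest p that 3 arrays against 3 allow is 0.1, and adjusted over the 4 pairs compared the smallest was 0.4. This test could not pass at this size, so it says nothing for or against a difference between the Doc genes.

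mid and H15 are neighbours on chromosome arm 2L and encode T-box factors related to vertebrate Tbx20, which act in cardioblasts. mid read 8.42, 7.73 and 8.02 in wild type and 7.69, 7.87 and 7.79 in Sage overexpression. The wild type arrays spanned the whole range of the Sage arrays except for Sage array 1, and the log2 difference was -0.27 (95% interval -0.70 to 0.15, adjusted p 0.46). It was -0.09 (adjusted p 0.80) when wild type array 1 was left out, and -0.43 (0.11) when wild type array 2 was. H15 read 6.21, 5.87 and 5.99 against 5.96, 5.82 and 6.10 with Sage, a log2 difference of -0.06 (95% interval -0.36 to 0.23, adjusted p 0.84). The change of mid differed from that of H15 by -0.21 (exact two-sided permutation p 0.3, 1 of the 4 pairs above).

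svp encodes the nuclear receptor that marks the inflow cells of the heart and there holds tin off. Its brightest probe set read 8.11, 7.79 and 7.70 in wild type and 7.63, 7.90 and 7.79 in Sage overexpression. The groups overlapped, with a log2 difference of -0.09 (95% interval -0.42 to 0.23, adjusted p 0.78). The other svp probe sets had means within the control range in both groups. One read 4.51 to 4.77 in wild type and 4.58 to 4.77 in Sage overexpression. The dimmest read 3.40 to 3.57 and 3.45 to 3.56. Their log2 differences of -0.01 and 0.02 say little about svp at that signal.

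Ork1 showed the largest difference of the 9 genes. It read 5.57, 5.92 and 5.29 in wild type and 4.23, 3.89 and 4.17 in Sage overexpression. All Sage arrays lay at least 1 log2 unit below every wild type array. The wild type mean of 5.59 ± 0.32 lay above all 70 controls without a fly target, with wild type array 3 at 5.29 inside their range. The Sage mean of 4.10 ± 0.18 had 26 of those 70 controls at or above it, so the array did not set it apart from background. Ork1 fell by 1.49 on the log2 scale (SE 0.18, 95% interval -1.93 to -1.06, limma adjusted p 0.0074). The fitted ratio of 2.81 in favour of wild type is not exact, since the lower value lies in the control range. It was the only heart gene that passed in every fit leaving out 1 array, with adjusted p from 0.0040 without wild type array 2 to 0.047 without Sage array 3. Beside it stands the median of -1.29 among the 5′ control probe sets.

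**Figure D2:**
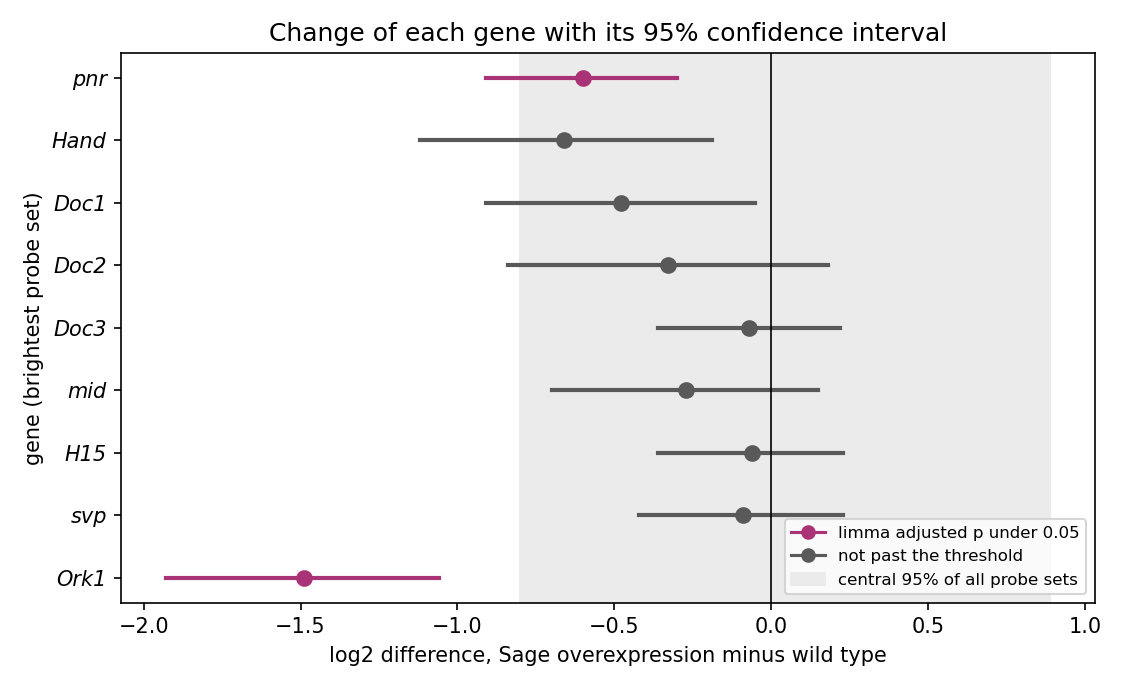
Log2 difference of each heart gene, Sage overexpression minus wild type, as a point with its 95% limma interval on the horizontal axis; genes past an adjusted p of 0.05 are purple and the grey band spans -0.80 to 0.89, the central 95% of all probe sets. The intervals of pnr, Hand, Doc1 and Ork1 lie below 0, and Ork1 alone has its whole interval outside the band.

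**Figure D3:**
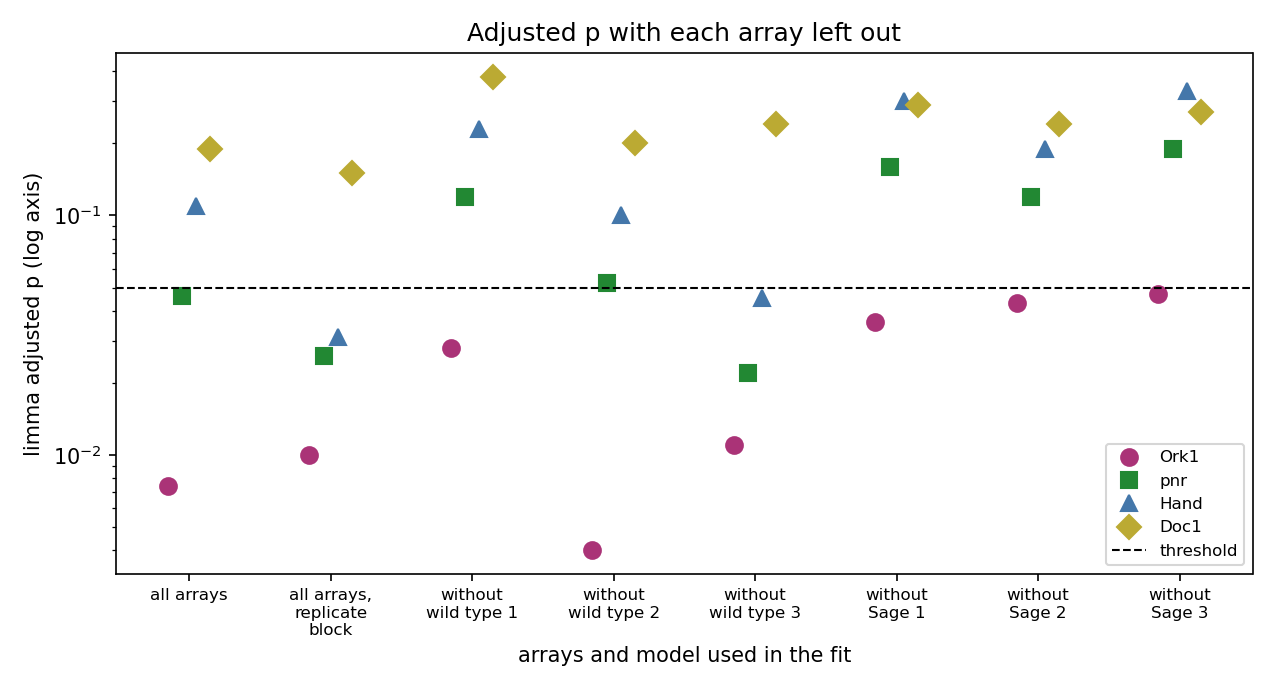
Limma adjusted p (log axis) of Ork1, pnr, Hand and Doc1 with all arrays, with the replicate number as a block, and with each array left out in turn. Ork1 stays below the dashed threshold of 0.05 throughout, pnr does so with all arrays, with the block and without wild type array 3, and Doc1 in none of these fits.

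The replicates ranked differently from gene to gene. pnr, Hand and Doc2 had their highest value on array 2 of each group, as did 30.5% of all probe sets, and H15 had its lowest there, as did 16.9%. Taken by replicate number, the Sage value was below the wild type value in 3 of 3 pairs for pnr, Ork1, Hand, Doc1 and Doc2. It was lower in 2 of 3 pairs for mid, H15 and Doc3, and in 1 of 3 for the brightest svp probe set. The share of all probe sets with a lower Sage value in 3 of 3 pairs was not counted. Protein-coding neighbours were looked up for all 9 genes in the gene table. pnr stands next to GATAe, another GATA factor gene, which had a log2 difference of 0.32 (adjusted p 0.43), and to Jhbp4, which rose by 0.96 (adjusted p 0.031). Of the neighbours of Ork1, CG1637 fell by 0.58 on the log2 scale (adjusted p 0.024) and CG1582 differed by 0.32 (adjusted p 0.16). Both calls were lost without Sage array 1, 2 or 3 (adjusted p up to 0.12 for each), and that of CG1637 also without wild type array 1 (0.066). No other neighbour with a probe set passed.

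Other genes of cardiac development were read from 6 lists, each gene by its brightest probe set. In RNA from whole embryos these values are not readings of heart or pericardial cells alone. Of 69 measured genes 2 were lower and 5 higher, against 3.49% lower and 4.31% higher among all 11983 genes. With the replicate block there were 18, of which 5 were lower and 13 higher, against 7.44% lower and as many higher among all 11983 genes in that fit. The fits without 1 array gave 14 without wild type array 2, and 3 without Sage array 1, 2 or 3. The medians given for the lists below also moved with the arrays used. Without wild type array 2 the median became -0.27 for the inducing signals, -0.33 for the mesoderm regulators, -0.10 for tube shape and matrix and 0.12 for contraction and channels. Without wild type array 1 it became -0.06 for cardioblast and pericardial identity.

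Signals that induce the heart were lower in 2 of 10 measured genes and higher in 0, with a list median of -0.11. Both act in the Dpp pathway, as do most of the 10 measured. The list names 18 genes, and none of its Wingless pathway genes was among the 10, so that signal was not read. put, a BMP receptor gene, read 10.01, 9.74 and 10.17 in wild type and 8.73, 8.80 and 8.98 in Sage overexpression, and fell by 1.13 on the log2 scale (SE 0.14, limma adjusted p 0.0072). Mad, the Smad transducer of the same signal, read 9.84, 10.22 and 10.00 against 9.20, 9.33 and 9.24, and fell by 0.76 (SE 0.12, adjusted p 0.016). The groups of put and of Mad did not overlap. put passed in every fit without 1 array (adjusted p up to 0.046), while Mad missed the threshold without Sage array 1 (0.075), 2 (0.062) or 3 (0.091). Other genes of the Dpp pathway, chosen for naming with their values known, did not pass. The ligand gene dpp had a log2 difference of -0.10 (adjusted p 0.90), the receptor genes tkv and sax -0.56 (0.23) and -0.21 (0.26), and Med, a partner of Mad, -0.10 (0.73). shn, a zinc-finger cofactor gene of the pathway, had the opposite sign at 0.84 (SE 0.64, adjusted p 0.55).

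Among 9 mesoderm regulators 1 rose and 0 fell, with a list median of -0.19. Him, which holds back muscle differentiation by inhibiting Mef2, read 8.10, 8.07 and 7.90 in wild type and 8.53, 8.77 and 8.62 in Sage overexpression, a rise of 1.54-fold (adjusted p 0.022). Its call was lost without wild type array 1 (0.053) or 3 (0.056) and without Sage array 1 (0.058), 2 (0.081) or 3 (0.10). Below the threshold, 4 of the 9 were lower at an unadjusted p under 0.05 with groups that did not overlap, as were 12.8% of all 11983 genes. They are named here after their values were seen. bap, the visceral mesoderm gene that Tinman activates, had a log2 difference of -0.37 (adjusted p 0.051). The mesoderm determinant twi had -0.40 (0.10), the visceral forkhead gene bin -0.43 (0.11), and the segmentation gene slp2 -0.51 (0.19).

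None of the 11 measured genes for cardioblast and pericardial identity passed, with a list median of -0.25. At an unadjusted p under 0.05, 1 was higher and 1 lower, beside 10.8% of all probe sets lower at that p. The share higher at that p was not counted. The smallest p was that of klu, a zinc-finger gene related to vertebrate WT1. klu read 8.77, 7.71 and 8.42 in wild type and 7.29, 6.68 and 7.33 in Sage embryos, a log2 difference of -1.20 (adjusted p 0.075). It passed with the replicate block (adjusted p 0.0058) and without wild type array 2 (0.011). lbe and Poxm lay within the control range in both groups.

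Genes for heart tube shape and matrix went the other way where they passed, with 2 of 21 higher and 0 lower and a list median of 0.09. Both encode integrin alpha subunits, receptors that tie cells to matrix. scb read 6.44, 6.51 and 6.47 in wild type and 8.63, 9.23 and 9.11 in Sage overexpression, a rise of 5.74-fold (log2 2.52, SE 0.16, adjusted p 8.1e-04). if read 8.91, 8.92 and 8.83 against 9.71, 9.85 and 9.98, a rise of 1.94-fold (adjusted p 0.0043). Both passed without any 1 array. scb is also known from the salivary gland. Of 3 salivary gland markers measured in the same whole-embryo RNA, PH4alphaSG1 rose 2.82-fold and sens 3.85-fold. The remaining marker, fkh, named with its values known, had a log2 difference of 0.03 (adjusted p 0.94) with overlapping groups. The PH4alphaSG1 call did not hold once Sage array 2 (adjusted p 0.052) or Sage array 3 (0.055) was dropped. In which cells scb or these markers rose was not tested. The replicate block gave 6 higher and 2 lower genes in the tube shape and matrix list. Among those with a smaller p under the block was prc, the pericardin gene of the matrix around the heart, chosen after its values were seen, with a log2 difference of 0.70 (adjusted p 0.058, 0.013 with the block, and 0.041 without wild type array 3). At an unadjusted p under 0.05, 7 of the 21 were higher and 2 lower, beside 10.8% of all probe sets lower at that p. The share higher was not counted. The 2 lower genes, also named with values known, were shg at -0.58 (adjusted p 0.055) and Nrt at -0.80 (0.059).

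The 12 measured genes for heart contraction and channels had positive log2 differences with all arrays, with a median of 0.37. This rested in part on wild type array 2, which was low for many of them. Without it 9 of the 12 were positive, the median was 0.12, and Mlc2, Ca-alpha1D and Tm2 had -0.34, -0.10 and -0.03. With all arrays 0 passed in limma. At an unadjusted p under 0.05, 2 were higher. The share of all probe sets higher at that p was not counted, so this number has no background beside it. The replicate block called 2, both higher. The smallest p without the block was that of the potassium channel gene slo, which read 6.41, 6.09 and 6.50 in wild type and 6.95, 6.54 and 6.93 in Sage embryos (log2 difference 0.47, adjusted p 0.16, and 0.029 with the block). Ih, a pacemaker-type channel gene named after its values were seen, had 0.79 (adjusted p 0.37, and 0.0094 with the block).

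Pericardial nephrocytes are filtering cells beside the heart that take up proteins through Cubilin and Amnionless. Of 6 measured nephrocyte genes 2 rose and 0 fell, with a median of 0.40. Amnionless read 7.05, 7.07 and 6.64 in wild type and 7.70, 7.94 and 7.73 in Sage overexpression, a rise of 1.82-fold (adjusted p 0.022). Cubn read 7.02, 6.82 and 6.89 against 7.44, 7.42 and 7.53, a rise of 1.47-fold (adjusted p 0.019). Both were lost without Sage array 1, 2 or 3 (adjusted p up to 0.096 and 0.10), and Cubn also without wild type array 3 (0.056). sns, a nephrin gene named after its values were seen, had a log2 difference of 0.77 (adjusted p 0.066, 0.026 with the block, and 0.013 without wild type array 2).

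**Figure D4:**
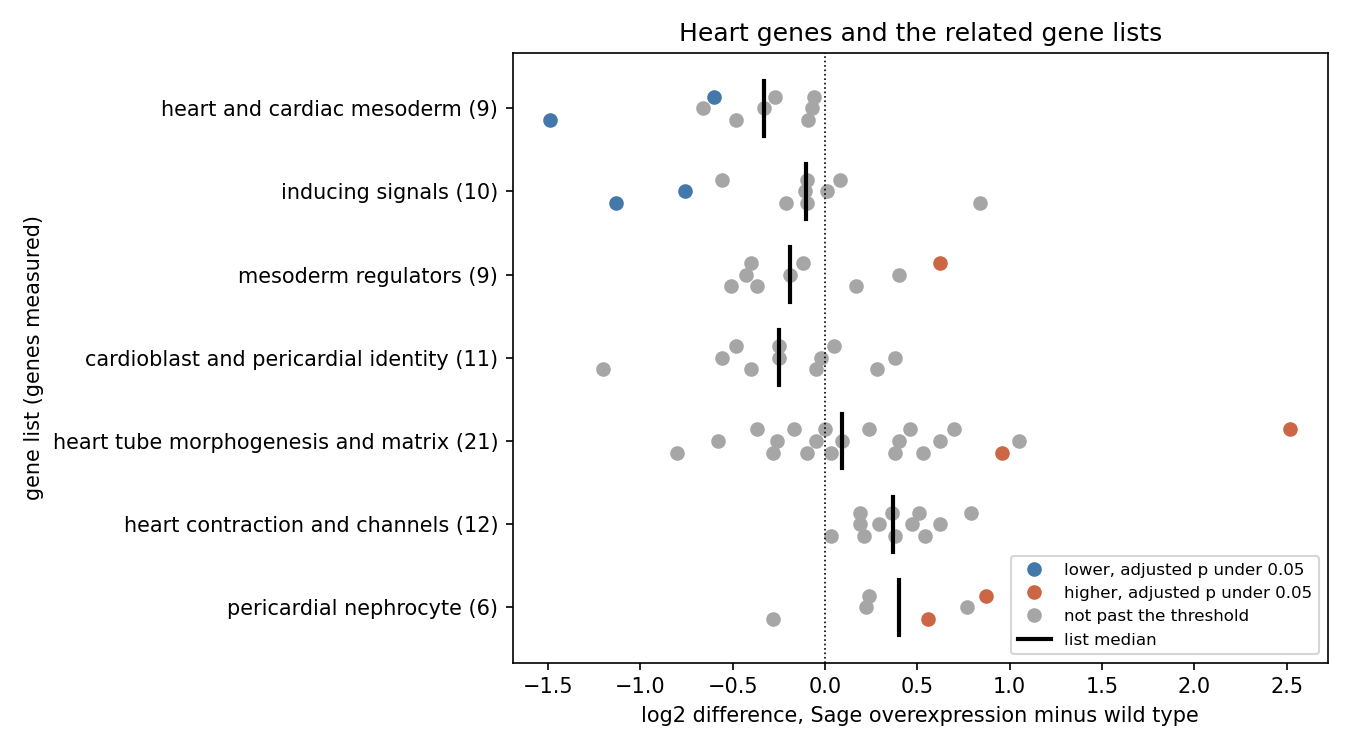
Log2 difference, Sage overexpression minus wild type, of each measured heart gene and of each gene in the 6 related lists, with lower calls in blue, higher calls in orange, other genes in grey and the list median as a bar. Medians run from -0.33 for the heart and cardiac mesoderm genes to 0.40 for the nephrocyte genes, and scb lies farthest right at 2.52.

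Markers of other tissues that use the same factors were set beside these values. In the amnioserosa and dorsal ectoderm list, 0 of 9 genes passed in limma, none had an unadjusted p under 0.05, and the median was 0.11. The mean level of that list ran from 8.16 to 8.48 over wild type arrays and from 8.33 to 8.43 over Sage arrays, with zen and zen2 in the control range in both groups. Of 7 blood and fat body markers 1 rose, Pxn, 2.08-fold (adjusted p 0.0019). None of the 6 nervous system markers passed without the block, and 1 was lower with it. Without the block 1 was lower at an unadjusted p under 0.05, as were 10.8% of all probe sets.

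Markers of embryo age moved with the groups as well. Of 10 genes of dividing cells 4 fell and 0 rose, against 3.49% lower and 4.31% higher among all 11983 genes. The list median was -1.0, and its mean level was 8.78 to 9.42 in wild type and 7.91 to 8.09 in Sage overexpression. pim, fzy, Incenp and aurB were the 4, with pim lower by a log2 difference of -2.13 (adjusted p 0.021). With the block 7 fell, against 7.44% of all genes lower in that fit, and without Sage array 1, 2 or 3 the count was 0. At an unadjusted p under 0.05, 8 of the 10 were lower, beside 10.8% of all probe sets lower at that p. Of 90 Cpr and Tweedle cuticle genes 9 rose and 0 fell, against the same 4.31% higher and 3.49% lower among all genes. Their median was 0.55, with mean levels of 6.53 to 7.29 in wild type and 7.51 to 7.75 in Sage overexpression. Of these 90, 30 lay in the control range in both groups. With the block 22 rose and 1 fell, against 7.44% higher and as many lower among all genes in that fit. At an unadjusted p under 0.05, 38 of the 90 were higher and 2 lower. The share of all probe sets higher at that p was not counted. The count of 9 became 2 without wild type array 1, 4 without Sage array 1 or 2, and 2 without Sage array 3. The part of embryo age in the differences of the heart genes was not tested.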

How the data were processed

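The comparison was fitted on 1 deposited value table with a column for each of 6 arrays. Its values were taken as log2 RMA values: the authors used RMA and Partek per the submitters' processing notes, whose versions, order and filters are not given in the sources used here. The log base was not stated. The 183 Affymetrix controls were left out of the tests. Of 14049 annotated probe sets 13647 were paired with 1 gene, and 13544 of these had an Entrez number found in the Release 6 gene table, used for symbols and gene order only.

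Differences were tested with limma 3.58.1 (lmFit, eBayes) in R 4.3.3, two-sided, with Benjamini-Hochberg adjustment over all 18769 probe sets and a threshold of 0.05. SEs and 95% intervals are limma's, the intervals unadjusted. A gene of a list was read from its brightest probe set (by the mean of all arrays). The text names every heart gene, and from each related list up to 4 genes past the threshold by size or else the one with the smallest p; other names are marked. In the lists of other tissues and of embryo age that limit was also used. The heart genes and all lists were chosen with earlier results of these data known. The fit was tested on simulated data.

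The labels number replicates 1 to 3 in both groups. Deviations from the group mean, across all probe sets, correlated at 0.39, 0.67 and 0.33 between same-numbered arrays, each above 0.1, so the numbers were treated as pairs. Wild type 3 with Sage 1 gave 0.43 and wild type 1 with Sage 3 gave 0.26, also above 0.1. This rule thus does not settle how the arrays numbered 1 and 3 pair, and the values with the block rest on that choice. The main design has no block, and values with the block stand where they change a call. No sequence was used. Python 3.11.15 with matplotlib 3.10.9 and pandas 2.3.3 drew the figures.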

Additional observations from a re-analysis of the deposited data

How the results depend on the processing

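Ork1 kept its direction and call under every alternative that tested it except that the filter on dim probe sets removed it, with log2 differences from -1.65 to -1.23. The latter came from leaving out both arrays numbered 2, an alternative chosen once the data had been seen. The count of 2 lowered heart probe sets became 0 with dim probe sets left out, 1 with quantile normalization, with trend and robust eBayes or at an adjusted p of 0.01, 3 with the replicate block and 4 with array weights. It ran from 1 to 3 when arrays were left out. pnr, at a log2 difference of -0.60, missed the threshold with the dim filter (adjusted p 0.052), with trend and robust eBayes (0.079) and at 0.01, and with quantile normalization at -0.56 (0.074). Without arrays it ran from -0.73 to -0.53, and without both numbered 2 it had an adjusted p of 0.062. Hand passed with array weights at -0.67 (0.0089) and with the replicate block at -0.66 (0.031), and ran from -0.84 to -0.48 without arrays. mid passed with array weights at -0.53 (0.025), and ran from -0.48 to -0.09 without arrays. The sign of small differences turned when arrays were left out: H15 ran from -0.14 to 0.03, the brightest svp probe set from -0.19 to 0.03, and its dimmer probe sets from -0.09 to 0.04 and from -0.02 to 0.09. The dimmest svp probe set also turned with median centring (-0.02) and quantile normalization (-0.04). Over all probe sets, 1149 calls became 3986 with array weights, 2191 with the replicate block and 349 at 0.01, and 335 to 1857 without arrays. Calls among the 69 related genes went from 7 to 28 with array weights, 18 with the replicate block, 3 at 0.01, and 3 to 14 without arrays. The replicate block changed no call of a heart gene other than Hand. The cause of these changes was not tested, beyond the smaller number of arrays or the stricter threshold that some settings bring. No detection calls were used, so the control range sets what is read as low signal.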

Other observations

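Many genes of the related cardiac lists had their lowest value on array 2 of each group. This held for 35 of 69 related genes, or 50.7%, for 9 of the 12 contraction and channel genes and 13 of the 21 genes for tube shape and matrix, for 1 of the 9 heart genes, and for 16.9% of all probe sets. The 4 related genes with the widest spread inside both groups were CadN, shn, Ih and LanA. CadN, a cadherin gene, read 8.88, 6.87 and 8.74 in wild type and 8.87, 6.93 and 8.37 in Sage overexpression. LanA, a laminin gene, read 12.91, 11.02 and 12.83 against 12.67, 11.59 and 12.61. In both genes the arrays numbered 2 lay more than 1 log2 unit below the others.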
